A study of Mus musculus with 30 samples.

Results

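The lysosome genes described here are 44 genes whose products act in the lysosome, namely 10 proteases, 12 glycosidases, 5 sulfatases, 8 lipid-handling proteins or their cofactors, 2 acid phosphatases and 7 membrane proteins. They were taken by name from a list, out of 54532 genes in each of the 2 deposited count tables. Each matched 1 Ensembl identifier, and 44 of 44 passed the filter on low counts in every comparison. RNA of platelets and of peripheral blood mononuclear cells (PBMCs) came from female C57BL/6 mice, 6 to 8 weeks old, in a model of B16F10 melanoma, a transplantable mouse tumor line of that strain. Mice of the C group received 100 µl of Hank's balanced salt solution (HBSS) without cells. Mice of the S group received 2000 B16F10 cells each, and those of the O group received 100000. Blood was taken at day 14. By then tumors could be felt in the O group, while no tumor was seen in the S group. Each tissue and group had 5 libraries, giving 30 in all. Each library was made from blood pooled over mice, with, by the labels, 3 to 5 mice for the O group in both tissues, 10 for each S group platelet library, 5 or 10 for the C group platelet libraries, and 4 or 5 for the C and S group PBMC libraries. The study's methods give slightly different sizes for some of the S group platelet pools. For S against O in platelets the pool sizes did not overlap, so pool size and group cannot be told apart there. In the other comparisons the groups shared pool sizes in part, and the part of pool size in the results was not tested. The errors below are the spread between pools. By the study's methods, PBMCs came from the blood left after the platelets were taken, but pool sizes matched between the tissues by number in the O group alone, so the 30 libraries were fitted as independent and the values with the replicate number as a block are given beside the tests between tissues. For platelets the tag for cell type says PBMC, so titles gave the tissue.

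Lysosomes are acidic organelles that break down proteins, glycans, glycolipids and other lipids taken up by the cell or delivered by autophagy. Most of their soluble enzymes carry a mannose 6-phosphate tag that sorts them there, and a proton pump, the V-ATPase, keeps the lumen acidic. Platelets carry lysosomes beside their alpha and dense granules and release part of the content on activation. Platelets have no nucleus, and their RNA is inherited from the megakaryocyte. Monocytes and other phagocytes are rich in lysosomes. In bulk RNA, fewer cells of a type and less RNA per cell cannot be told apart.

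Transcription factors of the MiT-TFE family, such as TFEB, are known to bind the letters TCACGTG in the promoters of lysosomal genes. RefSeq promoter windows of mouse build GRCm38.p6, 250 bases before to 50 bases after the start site, were found for 38 of the 44 members. TCACGTG on either strand lay in a window of 11 of these 38 members (28.9%), against 4.29% of 27025 genes with a window, and a gene may have more than 1 window. The shorter CACGTG, which every TCACGTG contains, lay in a window of 12 of 38 members (31.6%), against 8.09% of those genes. The 11 members with TCACGTG were Arsa, Ctsa, Ctsd, Gaa, Gla, Glb1, Lamp1, Lgmn, Mcoln1, Naglu and Sgsh. A match is a description of the letters, and no binding was measured. The 250 bases before the start site are shown 5′ to 3′ for 4 of them, Arsa, Mcoln1, Ctsd and Lamp1. These 4 were the carriers among 7 members of fixed interest and the members higher in S group platelets against both other groups. Acp5, Arsb and Neu1, also higher there, were not among the 11, which can also mean that no window was found. Of the 11, Ctsd, Glb1 and Lamp1 were higher in platelets than in PBMCs and the others were lower. No link between these letters and the levels was tested. Capitals mark TCACGTG or its reverse complement CACGTGA.
Arsa (chr15:89477425-89477674, minus strand): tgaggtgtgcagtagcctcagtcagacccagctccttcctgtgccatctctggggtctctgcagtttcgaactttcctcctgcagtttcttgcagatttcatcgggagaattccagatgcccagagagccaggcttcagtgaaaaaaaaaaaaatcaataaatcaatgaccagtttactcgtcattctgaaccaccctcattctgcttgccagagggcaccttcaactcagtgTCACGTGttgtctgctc
Mcoln1 (chr8:3500269-3500518, plus strand): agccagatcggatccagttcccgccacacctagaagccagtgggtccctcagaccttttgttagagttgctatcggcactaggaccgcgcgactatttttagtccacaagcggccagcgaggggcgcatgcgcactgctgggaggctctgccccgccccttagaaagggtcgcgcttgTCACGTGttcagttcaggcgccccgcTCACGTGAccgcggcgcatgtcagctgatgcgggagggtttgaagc
Ctsd (chr7:142387828-142388077, minus strand): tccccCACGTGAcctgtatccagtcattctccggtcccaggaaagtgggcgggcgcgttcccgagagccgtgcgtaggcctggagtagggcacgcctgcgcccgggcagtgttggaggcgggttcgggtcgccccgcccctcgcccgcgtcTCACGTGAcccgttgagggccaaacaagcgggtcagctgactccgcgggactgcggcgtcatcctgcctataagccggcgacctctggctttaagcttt
Lamp1 (chr8:13158911-13159160, plus strand): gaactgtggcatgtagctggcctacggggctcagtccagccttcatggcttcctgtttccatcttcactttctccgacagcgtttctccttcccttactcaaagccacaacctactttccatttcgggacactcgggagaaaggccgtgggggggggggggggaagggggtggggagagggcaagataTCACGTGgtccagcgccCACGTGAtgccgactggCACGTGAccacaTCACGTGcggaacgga
Arsa held 1 such run of letters, whose first base lay 17 bases before the start site. Ctsd and Mcoln1 held 2 each, and Lamp1 held 4.

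Total counts ran from 12259036 to 25360080 in the platelet libraries and from 13390983 to 15973449 in the PBMC libraries. Levels are given in CPM, which are counts per 1e6 counts of the library size after scaling by the trimmed mean of M values (TMM) over all 30 libraries. TMM factors ran from 0.386 to 1.01 in platelets and from 0.931 to 1.77 in PBMCs, so the scaling bears on any comparison between tissues. As a check of the labels, 10 of 10 tested platelet and megakaryocyte markers were higher in the platelet libraries, with a median log2 fold change of 4.30. Markers of other blood cells were present in the platelet libraries too: no gene of the monocyte, neutrophil, B cell, T cell or NK cell lists was at 0 in all libraries of a platelet group. Counts of 7 erythroid genes, mainly globins, took 4.18 to 41.2% of a platelet library and 3.35 to 27.3% of a PBMC library. Library O1 had the highest erythroid share of both tissues.

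All 44 members were detected in both tissues, at levels that differed for most of them. Of the 44 members, 11 were higher in platelets and 28 were lower at an adjusted P under 0.05 (edgeR quasi-likelihood test, 15 libraries against 15), and 5 passed in neither direction. Among all 16498 genes tested, 35.8% were higher in platelets and 45.2% were lower. The median log2 fold change was −1.26 over the members and −0.17 over all genes. With the replicate number as a block, 11 were higher and 30 were lower. By kind, 5 of 7 membrane proteins were higher in platelets while 9 of 12 glycosidases and 4 of 5 sulfatases were lower, and the difference between kinds was not tested.

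Per kilobase of exon, cathepsin D (Ctsd), the aspartic protease of the lysosome, had the highest mean level of the members in platelets, with 460.2 CPM per kb. Its level was 1082 CPM ± 446.6 (SD, n = 15) in platelets and 137 CPM ± 39.5 (SD, n = 15) in PBMCs. The 15 platelet libraries lay between 402.5 and 1888 CPM, all above the PBMC range of 80.4 to 231 CPM, and the log2 fold change was 2.98 (SE 0.20, adjusted P = 3.31e-14). Next in platelets per kilobase came Ctsz, a carboxypeptidase, with 396 CPM per kb, and Laptm5, a lysosomal membrane protein of blood cells, with 392.8 CPM per kb. With SDs of 41.3% and 46.1% of the mean for Ctsd and Ctsz, these neighbours in the order did not differ beyond their spread. In PBMCs the order began with Psap, the precursor of the saposins that help degrade sphingolipids, at 561.8 CPM per kb. Ctss, a cysteine protease of antigen-presenting cells, followed at 253.3 CPM per kb and Laptm5 at 178.9 CPM per kb.

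**Figure D1:**
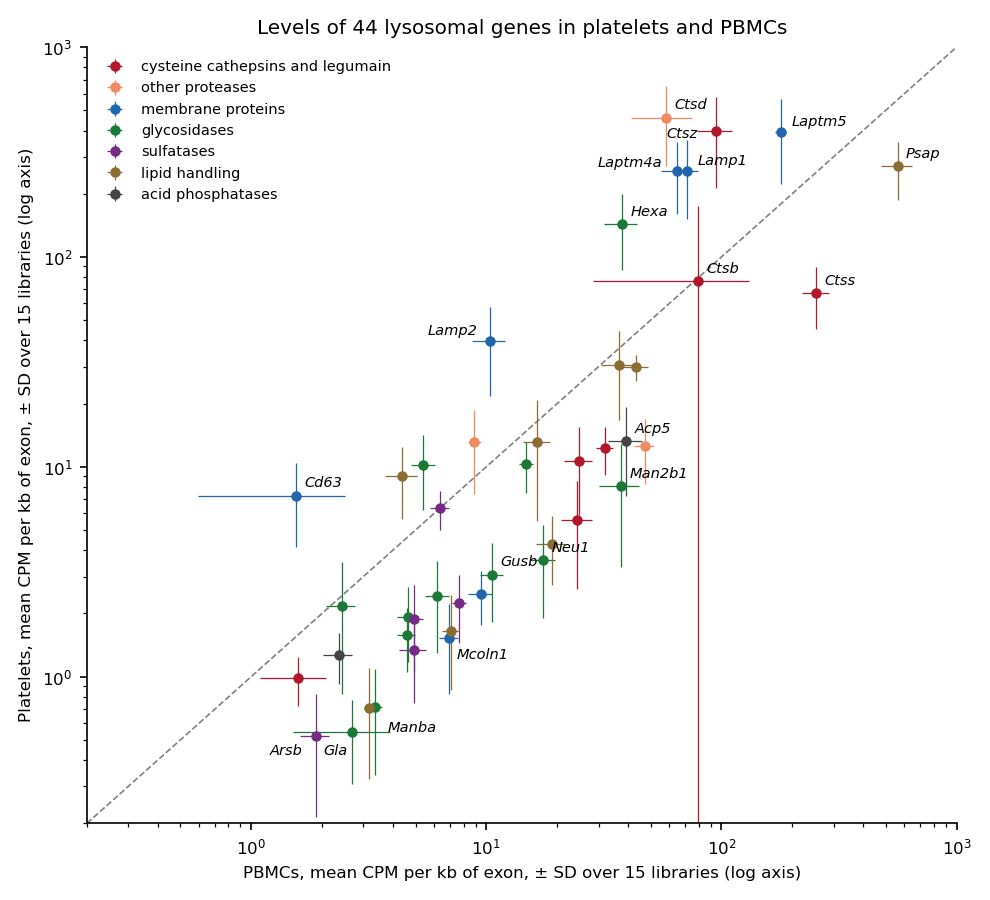
Mean level of each of the 44 members in platelets (vertical axis) against PBMCs (horizontal axis), in CPM per kb of exon on log axes, with SD over 15 libraries as bars, color for the kind of protein and the dashed line at equal levels. Ctsd, Ctsz, Cd63, Lamp1, Lamp2 and Laptm4a lie above the line and most glycosidases and sulfatases lie below it. The lower bar of Ctsb in platelets runs to the axis because its SD exceeds its mean. When library sizes alone set the scale, the log2 fold changes of Laptm5, Smpd1, Glb1 and Tpp1 turn negative, past the threshold for Glb1 and Tpp1.

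Among the membrane proteins, Cd63, a tetraspanin of lysosomes and dense granules, was higher in platelets by a log2 fold change of 2.22 (SE 0.24). Its level was 26.8 CPM ± 11.5 (SD, n = 15) in platelets and 5.70 CPM ± 3.51 (SD, n = 15) in PBMCs, and the ranges overlapped, since PBMC library O1 reached 14.8 CPM and the lowest platelet library had 13.3 CPM. Lamp1 and Lamp2, the abundant glycoproteins that line the lysosomal membrane, were higher by 1.83 (SE 0.16) and 1.93 (SE 0.18) on the log2 scale. Laptm4a was higher by 1.99 (SE 0.15) on the same scale. For Lamp1, Lamp2 and Laptm4a the platelet and PBMC libraries did not overlap. Among the enzymes, Ctsz (2.06, SE 0.17) and the glycosidase Hexa (1.92, SE 0.17), were also higher with no overlap. Overlap between the tissues was not counted over all genes.

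Most of the hydrolases were lower in platelets. The sialidase Neu1 was lower in platelets by the widest margin, with 13.4 CPM ± 6.30 (SD, n = 15) against 65.2 CPM ± 7.81 (SD, n = 15) and a log2 fold change of −2.34 (SE 0.17). The alpha-galactosidase Gla (−2.30, SE 0.21), the mannosidases Manba (−2.26, SE 0.17) and Man2b1 (−2.25, SE 0.20) and the calcium channel of the lysosome, Mcoln1 (−2.22, SE 0.15), were close to it. Npc1, which exports cholesterol from the lysosome, differed by −2.20 (SE 0.16). Gusb, the beta-glucuronidase, was at 14.0 CPM ± 5.70 (SD, n = 15) in platelets and 48.0 CPM ± 5.42 (SD, n = 15) in PBMCs. Psap was lower in platelets by a smaller margin, −1.06 (SE 0.14) on the log2 scale. The 5 members that passed in neither direction were Ctsb, Aga, Ids, Ppt1 and Grn.

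The scale matters for this split. With library sizes alone and no TMM factor, an alternative added after the factors were seen, the median over all genes moved from −0.17 to −1.38 and that over the members from −1.26 to −2.53. Members then counted 7 higher and 35 lower, and Glb1 and Tpp1 turned from higher to lower in platelets. Laptm5 and Smpd1 changed sign but then passed in neither direction. Ctsd, Ctsz, Cd63, Lamp1, Lamp2, Laptm4a and Hexa were higher under both scales. So 4 of 7 membrane proteins, not 5, remained higher in platelets. Monocyte and macrophage markers were lower in platelets for 8 of 10 genes, with a median log2 fold change of −2.37, and none of them was at 0 in a whole group. Csf1r, the receptor that monocytes need for growth, had means of 35.2 to 65.6 CPM in the platelet groups and 346.7 to 393.4 CPM in the PBMC groups. The summed levels, 1006 to 5010 CPM in platelets and 2016 to 4504 CPM in PBMCs, consist mostly of lysozyme (Lyz2), whose log2 fold change was −0.05 (SE 0.18). Their part in the result was not tested.

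In platelets the S group was compared with the C group, which asks whether mice with no visible tumor differed from mice without tumor cells. Of the 44 members, 7 were higher in the S group at an unadjusted P under 0.05 and 0 were lower, while 4.29% of all 13268 genes tested were higher and 2.13% were lower. They were Arsb, Man2b1, Neu1, Mcoln1, Arsa, Lipa and Acp5. In every one of the 7 the groups overlapped, and adjusted P ran from 0.746 to 0.769. By DESeq2 the same number, 7 higher and 0 lower, passed the unadjusted threshold, and no member passed the adjusted one. The member median was 0.12 on the log2 scale against −0.01 over all genes. Each of the 7 members belonged to the 28 that were higher in PBMCs than in platelets.

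Arsb, the sulfatase that acts on dermatan and chondroitin sulfate, rose most. Its level was 1.60, 2.67, 1.21, 2.89 and 3.73 CPM in the C group, 6.57, 2.63, 4.91, 2.93 and 7.56 CPM in the S group and 1.93, 2.42, 2.30, 2.24 and 1.56 CPM in the O group. Libraries S1, S3 and S5 lay above every C library, and S2 and S4 lay among them. The log2 fold change of S against C was 1.09 (SE 0.38, unadjusted P = 0.0127, adjusted P = 0.746). Arsb was the one of the 7 that passed the unadjusted threshold in all 10 fits that left out a library, and the other 6 passed in 3 to 6 of them.

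Acp5, the tartrate-resistant acid phosphatase of osteoclasts and macrophages, was at 35.5, 18.5, 20.8, 27.0 and 29.9 CPM in the C group and at 45.0, 27.4, 44.7, 25.3 and 49.6 CPM in the S group. Libraries S1, S3 and S5 stood above all of the C group, and the log2 fold change was 0.58 (SE 0.24, unadjusted P = 0.0277, adjusted P = 0.752). Arsa, which removes sulfate from sulfatide, a myelin lipid, was at 9.80, 5.34, 3.33, 7.32 and 7.25 CPM in the C group and at 8.95, 8.62, 11.7, 7.81 and 12.9 CPM in the S group. Its log2 fold change was 0.64 (SE 0.27, unadjusted P = 0.0322, adjusted P = 0.757), with library C1 inside the S range.

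Mcoln1 was at 14.5, 9.77, 5.67, 11.96 and 8.56 CPM in the C group and at 13.6, 8.72, 16.3, 12.8 and 26.4 CPM in the S group, a log2 fold change of 0.68 (SE 0.30). Neu1 was at 16.8, 4.64, 10.6, 14.5 and 10.7 CPM in the C group and at 21.2, 13.7, 18.7, 11.9 and 28.6 CPM in the S group, a log2 fold change of 0.75 (SE 0.33). Man2b1, an alpha-mannosidase, was at 85.9, 35.8, 39.4, 53.1 and 40.1 CPM in the C group and at 86.9, 42.1, 75.9, 49.0 and 164 CPM in the S group, a log2 fold change of 0.77 (SE 0.36). Library S5 held the highest value of each of these genes. Lipa, the acid lipase that frees cholesterol from its esters, differed by 0.64 (SE 0.28) on the log2 scale, and S5 was again highest with 23.7 CPM. Without library S5 the count fell from 7 to 1, without C2 or C3 it was also 1, without C5 3, without S1 4 and without S3 2. Without C1 it was 13 and without S2 11. With all 3 groups in one fit the count was 3. With library sizes alone it was 16, and the member median moved from 0.12 to 0.36 on the log2 scale. Here and below, shares of all genes are given for the main fits alone, so counts under other settings have no background beside them.

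Markers of white cells moved in the same libraries. In the S group against the C group, 4 of 8 T cell markers, 4 of 9 B cell markers, 1 of 10 monocyte markers and 1 of 7 NK cell markers were higher in platelets, and none of these was lower. Summed T cell markers ran from 208.7 to 227.5 CPM in the C group and from 222.2 to 312.7 CPM in the S group. Summed B cell markers ran from 1031 to 1245 CPM and from 1060 to 2091 CPM in the same groups. Monocyte markers had a median log2 fold change of 0.54 and 8 of 10 were above 0, with Csf1r at a mean of 43.4 CPM in the C group and 65.6 CPM in the S group. Their sum, 2215 to 5010 CPM in the C group and 1694 to 4020 CPM in the S group, consists mostly of Lyz2, which differed by −0.24 (SE 0.30). None of the 10 tested platelet markers and none of the 7 erythroid genes passed in either direction, but 7 of 7 erythroid genes were below 0, with a median log2 fold change of −0.62. The part of white cell and erythroid RNA in the member values was not tested.

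More members passed in S against O platelets than in S against C, and both comparisons use the same S libraries. In S against O, 15 of 44 members were higher and 0 were lower at an unadjusted P under 0.05, while 7.23% of 13306 genes were higher and 6.67% were lower. The member median was 0.33 on the log2 scale and that of all genes −0.01. By kind, 4 of 5 sulfatases, 3 of 7 cysteine cathepsins with legumain, 3 of 12 glycosidases, 2 of 7 membrane proteins, 2 of 8 lipid-handling genes, 1 of 2 acid phosphatases and 0 of 3 other proteases were higher. Of the 15, 14 were among the members higher in PBMCs and 1, Smpd1, was among those higher in platelets. The edgeR adjusted P ran from 0.225 to 0.356, so no member passed after adjustment, whereas DESeq2 gave an adjusted P under 0.05 to Acp5, Arsa and Arsb.

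Arsa, Acp5 and Arsb were the members whose S and O libraries did not overlap. Overlap was not counted over all genes, so no background share stands beside these 3. Arsa was at 2.12, 5.13, 5.86, 4.80 and 3.51 CPM in the O group, below the lowest S library with 7.81 CPM, and the log2 fold change of S against O was 1.29 (SE 0.27, unadjusted P = 0.000416, adjusted P = 0.225). Acp5 was at 17.0, 11.9, 20.4, 9.19 and 21.6 CPM in the O group, below the lowest S library with 25.3 CPM, with a log2 fold change of 1.31 (SE 0.30, unadjusted P = 0.000883, adjusted P = 0.225). Arsb reached at most 2.42 CPM in the O group and at least 2.63 CPM in the S group, a log2 fold change of 1.32 (SE 0.34, unadjusted P = 0.00214, adjusted P = 0.225). Each of the 3 passed the unadjusted threshold in all 10 fits that left out a library. They are low in abundance except Acp5, so that a few CPM separate the groups.

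**Figure D2:**
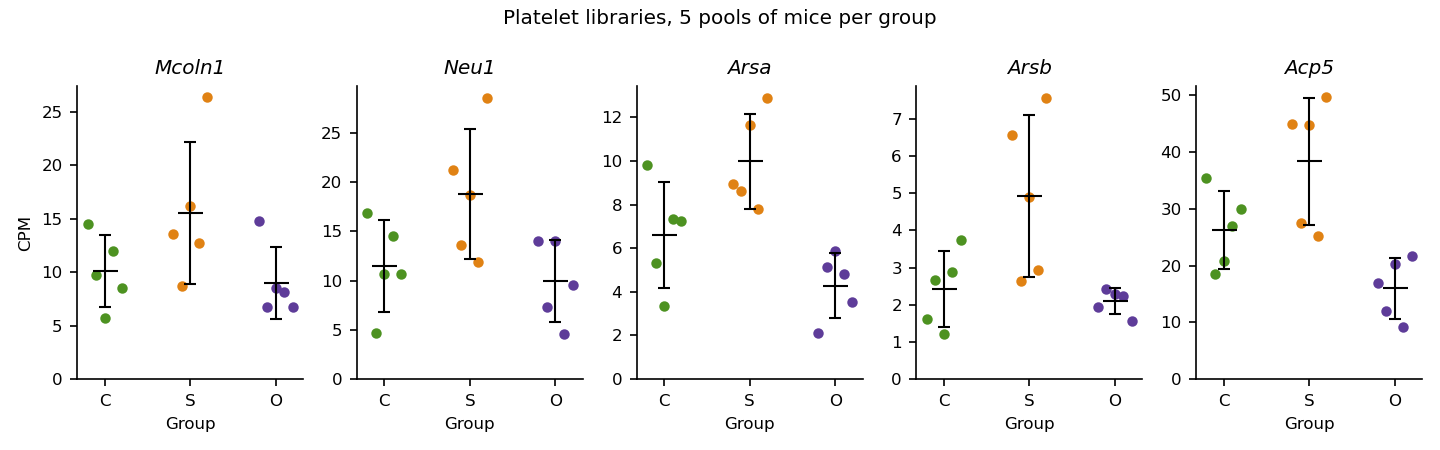
CPM of Mcoln1, Neu1, Arsa, Arsb and Acp5 in each platelet library of the C, S and O groups, with the group mean and SD as black bars (n = 5). The S libraries of Arsa, Arsb and Acp5 lie above all O libraries and overlap with the C libraries, while those of Mcoln1 and Neu1 overlap with both groups.

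The remaining 12 members of the S against O comparison overlapped between groups, and passed the threshold in 4 to 9 of the 10 fits that left out a library. Sgsh, the sulfatase that acts on heparan sulfate, rose by 1.03 (SE 0.42) on the log2 scale and Galns, a sulfatase of keratan sulfate, by 0.75 (SE 0.31). Among glycosidases, Manba rose by 0.99 (SE 0.38), Neu1 by 0.98 (SE 0.36) and Gaa, which degrades glycogen, by 0.75 (SE 0.29). Of the cathepsins, Ctsc, which activates granule serine proteases, rose by 0.84 (SE 0.38), Ctss by 0.68 (SE 0.27) and the aminopeptidase Ctsh by 0.56 (SE 0.23). Mcoln1 rose by 0.87 (SE 0.33) and Scarb2, the carrier of glucocerebrosidase, by 0.62 (SE 0.23). Npc1 rose by 0.84 (SE 0.38) and Smpd1, the acid sphingomyelinase, by 0.73 (SE 0.27). Leaving out library S5 brought the count of 15 to 6, leaving out O4 brought it to 9, and leaving out O2 brought it to 6, of which 5 were higher and 1 was lower. Leaving out O1 raised it to 23.

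The white cell markers moved here as well. In S against O platelets, 7 of 8 T cell, 6 of 9 B cell, 4 of 10 monocyte and 2 of 7 NK cell markers were higher, and 6 of 9 tested neutrophil markers were lower. Summed T cell markers ran from 222.2 to 312.7 CPM in the S group and from 101.9 to 218 CPM in the O group, with no overlap. The median log2 fold change of the monocyte markers was 0.62, with Csf1r at 0.95 (SE 0.44). Their sum, mostly Lyz2, ran from 1694 to 4020 CPM and from 1006 to 3796 CPM, and summed neutrophil markers from 252.1 to 462.1 CPM and from 495.7 to 4945 CPM. Erythroid genes were below 0 for 7 of 7, with a median log2 fold change of −0.62, and 1 of them, Slc4a1, passed as lower. The 10 tested platelet markers included 0 that passed. The part of these cells in the member values was not tested.

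In the O group against the C group, 2 of 44 platelet members were lower and 0 were higher, with 2.17% of 13270 genes lower and 2.61% higher. Acp5 fell by 0.76 (SE 0.28, unadjusted P = 0.018, adjusted P = 0.910) on the log2 scale, from 26.3 CPM ± 6.88 (SD, n = 5) to 16.0 CPM ± 5.35. Smpd1 fell by 0.63 (SE 0.27, unadjusted P = 0.0402, adjusted P = 0.910), from 33.2 CPM ± 10.0 to 22.4 CPM ± 9.41. Groups overlapped in both genes, and neither passed when library sizes alone set the scale. Without C1 the count was 0, without C2, C4 or O5 it was 1, and without O3 it was 5. With the replicate number as a block 3 were lower, Acp5, Smpd1 and Idua. T cell markers were lower for 4 of 8 genes and B cell markers for 3 of 9, while neutrophil markers were higher for 4 of 9.

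Acp5, Arsa, Arsb, Mcoln1 and Neu1 were higher in the S group platelets against both other groups at an unadjusted P under 0.05. In S against C, Mcoln1 and Neu1 did not pass with all 3 groups in one fit, and Mcoln1 did not with the replicate block. Of the 10 fits that left out a library, Neu1 passed in 4, Mcoln1 and Acp5 in 5, Arsa in 6 and Arsb in 10. Among 13083 genes tested in both comparisons, 2.52% met both criteria. The S libraries enter both comparisons, so the criteria are not independent.

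**Figure D3:**
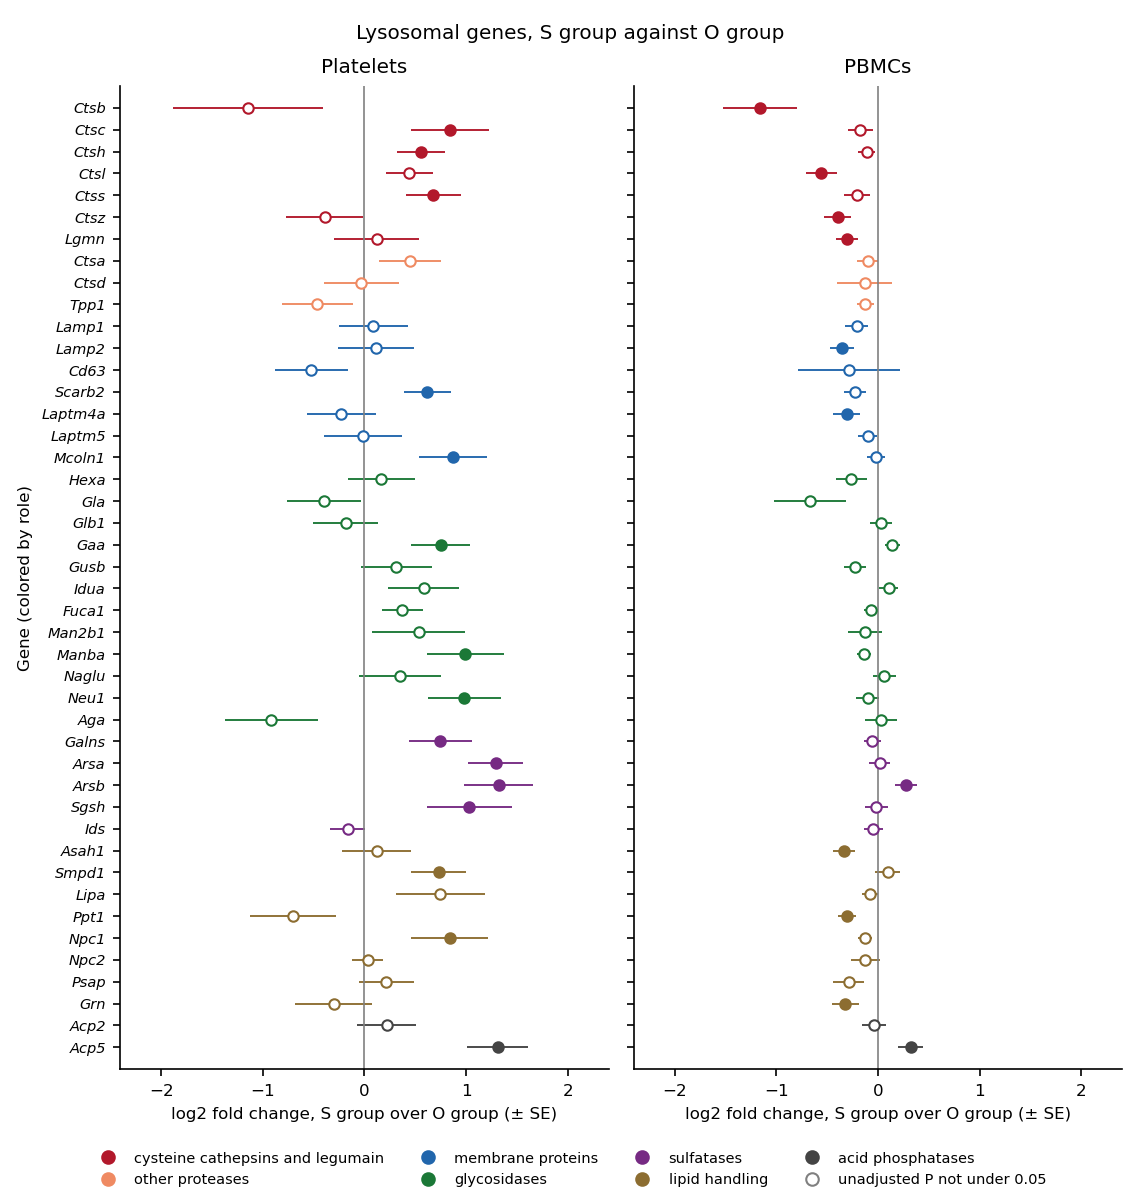
Log2 fold change of S against O for each member in platelets and in PBMCs, with SE, filled where the unadjusted P was under 0.05. In platelets the 15 filled points lie above 0, and in PBMCs 9 of 11 lie below 0, of which 7 turn positive when library sizes alone set the scale.

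In PBMCs, O against C compares mice bearing palpable tumors with mice without tumor cells. Of the 44 members, 4 were higher and 1 was lower at an unadjusted P under 0.05. Among 14726 genes 7.56% were higher and 4.39% were lower, so the share of members was near that of all genes. The member median was 0.11 on the log2 scale, against 0.00 over all genes.

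Ctsb, an abundant cysteine protease of the lysosome, was at 309.4, 336.1, 381, 358.3 and 364 CPM in the C group PBMCs and at 1498, 525.5, 494.7, 802.4 and 389.1 CPM in the O group. All O libraries lay above all C libraries, and the log2 fold change was 1.17 (SE 0.35, unadjusted P = 0.00658, adjusted P = 0.337 by edgeR). DESeq2 gave Ctsb an adjusted P of 0.0245. Library O1 carried much of the size, since the log2 fold change was 0.70 without it, still past the unadjusted threshold. Ctsb was also higher with library sizes alone, by 0.61. In the 5 O group PBMC libraries the erythroid genes took 27.3, 18.9, 15.6, 20.3 and 6.76% of counts, so that O1 and O4 were highest and O5 was lowest in both values. Their part in the Ctsb level was not tested. The S group PBMCs, at 349.1, 353.2, 438.4, 242.7 and 387.1 CPM, overlapped with the C group.

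**Figure D4:**
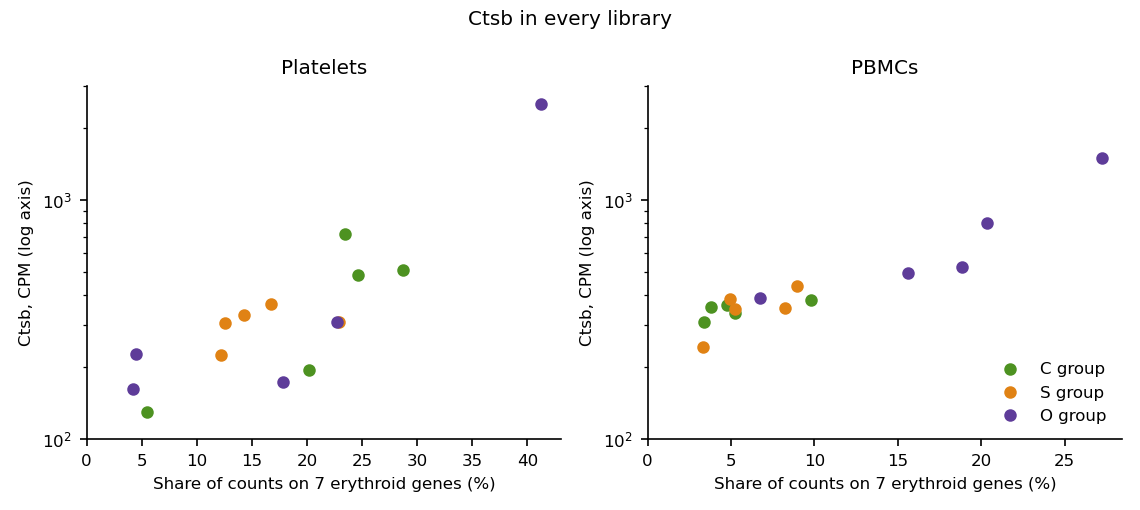
Ctsb level in CPM (log axis) against the percent of counts on 7 erythroid genes, 1 point for each of the 15 platelet and 15 PBMC libraries, colored by group. Library O1 is highest on both axes in both tissues, at 2525 CPM and 41.2% in platelets and at 1498 CPM and 27.3% in PBMCs.

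In platelets Ctsb had the same high library. The O group was at 2525, 161.5, 308.5, 225.9 and 173.5 CPM, the C group at 718.7, 129.9, 194.9, 487.2 and 509.1 CPM and the S group at 304.5, 309.5, 329, 225 and 367.9 CPM. Apart from O1, the O libraries lay within the C range, and the log2 fold change of O against C was 0.77 (SE 0.82, adjusted P = 0.918), and −0.98 (SE 0.46, unadjusted P = 0.056, adjusted P = 0.954) without O1. Between tissues Ctsb differed by −0.04 (SE 0.31, adjusted P = 0.911), an estimate whose error allows a change in either direction, and by −0.38 (SE 0.28) without platelet library O1. In the interaction test described below, leaving out that library made the O against C difference of Ctsb more negative in platelets than in PBMCs. It was −2.18 on the log2 scale (SE 0.53, adjusted P = 0.035), and that of Lgmn was −1.09 (adjusted P = 0.035). PBMC library O1, the highest for Ctsb in PBMCs, stayed in that fit. With PBMC library O1 left out instead, the differences were 0.07 (SE 0.77) for Ctsb and −0.28 (SE 0.40) for Lgmn. No fit left out both libraries. The Ctsb libraries had a SD of 127% of the mean in platelets, the widest spread of the 44 members there.

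The other members of the PBMC comparison of O against C were Gla, Ctsz, Fuca1 and Gaa. Gla was higher by 0.80 (SE 0.29) on the log2 scale, from 6.99 CPM ± 1.88 (SD, n = 5) to 11.8 CPM ± 4.77. Ctsz was higher by 0.36 (SE 0.14) and Fuca1, the alpha-fucosidase, by 0.18 (SE 0.07). Both changed sign when library sizes alone set the scale, and neither then passed the threshold. Gaa fell by 0.15 (SE 0.07) on the log2 scale, and passed the threshold in 2 of 10 fits that left out a library and under 2 of 6 other settings. With library sizes alone the median of all genes was −0.37, that of the members was −0.29, and 10 members were lower, with Ctsb the 1 that was higher. Without C3 or O4 the count of 5 became 2, without O2 3 and without C4 10, and with no filter on low counts it was 3.

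In S against O, 2 PBMC members were higher and 9 were lower, with 4.43% of 14686 genes higher and 7.8% lower. With library sizes alone 6 were higher and 1, Ctsb, was lower. Arsb (0.28, SE 0.11) and Acp5 (0.32, SE 0.12) were higher in the S group on the log2 scale, and for Arsb the libraries did not overlap, at 11.6 to 13.2 CPM in the S group and 7.64 to 11.4 CPM in the O group. Ctsb fell by 1.16 (SE 0.36) on the log2 scale from O to S, and by 0.69 without library O1. Ctsl, a cysteine endopeptidase, fell by 0.56 (SE 0.15), from 12.1 CPM ± 2.42 (SD, n = 5) in the O group to 8.56 CPM ± 1.19 in the S group. Both were lower in the S group also with library sizes alone, although Ctsl then missed the threshold.

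A further 7 members were lower in the S group PBMCs under TMM scaling. With library sizes alone the log2 fold change of each turned slightly above 0, and none of these passed the threshold. They were Ctsz (−0.40, SE 0.13), Lamp2 (−0.36, SE 0.12), the ceramidase Asah1 (−0.33, SE 0.11), progranulin Grn (−0.32, SE 0.13), Laptm4a (−0.31, SE 0.13), the thioesterase Ppt1 (−0.30, SE 0.09) and the asparaginyl endopeptidase Lgmn (−0.30, SE 0.11). Grn passed the threshold in 2 and Laptm4a in 4 of the 10 fits that left out a library, Arsb and Acp5 in 7, and the other 7 of the 11 members in all 10. With library sizes alone these 7 ran from 0.02 to 0.11 on the log2 scale while the median of all genes was 0.36, so they remained below it. Adjusted P ran from 0.296 to 0.379 over the 11 members, and by DESeq2 Ctsb passed at an adjusted P of 0.0499. With the replicate number as a block, 3 members were higher and 11 were lower. Laptm4a and Lgmn then no longer passed, while Gla, Gusb, Psap and Scarb2 passed as lower and Gaa as higher.

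Erythroid and lymphocyte markers moved in the same PBMC comparisons. In O against C, 7 of 7 erythroid genes were higher, 8 of 8 T cell genes were lower and 2 of 7 NK cell genes were lower. Erythroid genes took 3.38 to 9.78% of the counts in the C group, 3.35 to 8.96% in the S group and 6.76 to 27.3% in the O group. These directions were the same with library sizes alone. In S against O, 7 of 7 erythroid genes and 3 of 10 neutrophil genes were lower, and 8 of 8 T cell genes and 7 of 7 NK cell genes were higher. Platelet and megakaryocyte markers had a median log2 fold change of 0.65 in O against C, with 10 of 10 above 0 and none past the threshold, and of −0.95 in S against O, with 0 of 10 above 0 and 1, Itgb3, lower. With library sizes alone these medians were 0.03 and −0.32. Of the 9 members lower in S against O, Ctsz, Lamp2 and Laptm4a were among those higher in platelets than in PBMCs. None of the 10 monocyte and macrophage markers passed in either comparison, with summed levels of 3229 to 4407 CPM in the C group, 2016 to 3943 CPM in the S group and 3264 to 4504 CPM in the O group. The part of these cells in the member values was not tested.

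In S against C no PBMC member passed an unadjusted P of 0.05 by edgeR or by DESeq2, while 1.23% of 15139 genes were higher and 1.41% were lower. Same-numbered C and S libraries deviated together in PBMCs, and with the replicate number as a block 2 members passed, Fuca1 as higher and Acp2 as lower. No member passed after adjustment in this or any other comparison of groups by edgeR with all libraries in the fit.

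The difference of each group contrast between tissues was tested as an interaction. For S against O, 14 members had a more positive difference in platelets than in PBMCs and 1 had a more negative one, while 5.86% of 16498 genes were positive and 7.75% negative. The 14 were Ctsc, Ctsh, Ctsl, Ctss, Scarb2, Mcoln1, Manba, Neu1, Galns, Arsa, Arsb, Sgsh, Npc1 and Acp5, and each of them belonged to the 28 members higher in PBMCs. Arsa had the lowest P, with a difference of 1.12 (SE 0.30, unadjusted P = 0.000775, adjusted P = 0.175). Aga, which cleaves glycans from asparagine, was the negative one, at −1.08 (SE 0.43). Its platelet level was 12.1 and 12.7 CPM in libraries O1 and O4, the 2 pools of 3 mice, and 3.11 to 3.64 CPM in the other O libraries. For S against C, Arsb alone had a difference, 0.97 (SE 0.34, unadjusted P = 0.0085, adjusted P = 0.798), with 3.33% of genes positive and 2.05% negative. For O against C no member passed by edgeR, with 3.89% of genes positive and 2.71% negative, and 2, Arsa and Ctsl, were negative by DESeq2. With the replicate number as a block, S against O had 14 positive and 0 negative, without Aga and Npc1 and with Lipa, and O against C had 1 negative, Ctsl. Without library C1 of the platelets the S against C count was 15, and without library S5 the S against O count was 9, whereas without O1 it was 25. These counts rest on TMM scaling, and with library sizes alone they were 11, all positive, for S against C and 2, Aga and Tpp1 as positive, for O against C. For S against O they were then 3 positive and 1 negative, Aga.

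Genes around the members were read from 6 lists of 75 genes, in the same fits. In platelets against PBMCs, 29 of 74 tested were higher and 34 were lower, shares near the 35.8% and 45.2% of all genes, and with library sizes alone 6 were higher and 59 were lower. Of 16 subunits and partners of the V-ATPase, 11 were higher in platelets and 2 were lower, but the list turned to 3 higher and 11 lower with library sizes alone. Atp6v1f led under both scales, with a log2 fold change of 3.25 (SE 0.18) under TMM. Other hydrolases were lower for 13 of 15 genes, and for 14 of 15 with library sizes alone. Of 14 other lysosomal membrane proteins, 3 were higher in platelets and 10 were lower, with a median log2 fold change of −1.98, and with library sizes alone 0 were higher and 13 were lower. Of 10 genes of mannose 6-phosphate tagging and sorting, 3 were higher in platelets and 6 were lower. The receptor Igf2r, which carries mannose 6-phosphate enzymes, was lower by 2.08 (SE 0.15) and Gnptab, a subunit of the transferase that makes the tag, by 1.93 (SE 0.10). Gnptg, another subunit of that transferase, went the other way, with group means of 85.9 to 96.8 CPM in platelets and 19.1 to 22.0 CPM in PBMCs. Sort1 did too, at 167.8 to 256 CPM against 45.3 to 64.1 CPM. Serpinb6a, a serpin that inhibits proteases, was higher by 4.34 (SE 0.27).

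Between groups the listed genes were counted at an unadjusted P under 0.05. In S against O platelets 14 of 73 were higher and 9 were lower, where 7.23% of all genes were higher and 6.67% lower, or 14 and 3 with library sizes alone. Gm2a, the activator protein for breakdown of the ganglioside GM2, rose by 0.74 (SE 0.28) on the log2 scale. Igf2r rose by 0.82 (SE 0.30), and the lymphocyte cathepsin Ctsw rose by 2.03 (SE 0.38). The V-ATPase subunits Atp6v1a, Atp6v1b2 and Atp6v1d fell, by 0.66 (SE 0.17), 0.41 (SE 0.15) and 0.38 (SE 0.15), and passed no more with library sizes alone, while Atp6v0b rose by 0.66 (SE 0.27). In S against C platelets 6 of 72 listed genes were higher and 0 were lower (4.29% and 2.13% of all genes), with 16 and 0 for library sizes alone. In O against C 5 were higher and 2 were lower (2.61% and 2.17% of all genes). In PBMCs, 11 of 71 listed genes were higher and 3 were lower in O against C (7.56% and 4.39% of all genes), and 7 of the 11 were V-ATPase subunits, with Atp6v0d1 at 0.58 (SE 0.23). In S against O PBMCs 1 was higher and 13 were lower (4.43% and 7.8% of all genes), and in S against C 0 passed. Both directions turned with the scale, to 1 higher and 13 lower in O against C and to 11 higher and 1 lower in S against O when library sizes alone were used.

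The summed level of the 44 members overlapped between all groups of a tissue and was not tested. In platelets it was 7244 CPM ± 2836 (SD, n = 5) in the C group, 6843 CPM ± 1754 in the S group and 7508 CPM ± 3169 in the O group. In PBMCs it was 5767 CPM ± 439.4 in the C group, 5516 CPM ± 630 in the S group and 6395 CPM ± 371 in the O group. The differences in platelets lay well within the spread between pools. In PBMCs the mean of the O group stood above those of the S and C groups by more than the SD of either group compared under TMM. The order turned with library sizes alone, an alternative added after the sums were seen, where the O group was lowest, at 8476 CPM ± 1371 (SD, n = 5) against 9125 CPM ± 1017 in the S group and 9699 CPM ± 802.5 in the C group. In platelets the means were then 4240 CPM ± 764 in the C group, 4857 CPM ± 555.2 in the S group and 4365 CPM ± 1207 in the O group, with overlap between all groups.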

How the data were processed

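RNA was measured by poly-A sequencing in 15 platelet and 15 PBMC libraries. Per the labels and the study's methods the authors aligned reads with HISAT2 2.0.5 and deposited whole-number counts per gene from featureCounts 1.5.0-p3, 1 table for each tissue. The submitters' processing notes name mm9, but gene positions in the study's tables were those of GRCm38 for 651 of 672 genes. Strand setting and the treatment of reads shared with pseudogenes are not given in the sources used here. From the counts, each pair of groups was fitted in R 4.3.3 with edgeR 4.0.16 (filterByExpr, TMM, quasi-likelihood F test, Benjamini-Hochberg adjustment over all genes tested). Tissues and their interactions with group were fitted on all 30 libraries. A member was called at an unadjusted P under 0.05 between groups, and at an adjusted P under 0.05 between tissues. SE is the log2 fold change divided by the square root of F. Alternatives were DESeq2 1.42.0, no low count filter, RLE size factors, a block for the replicate number, a fit of all 3 groups together and each library left out, plus library sizes alone, which was added after the TMM factors were seen. Level per kb used GENCODE M21 exon lengths. The fits of S against C and of platelets against PBMCs were also run on simulated counts with known changes, whose outcome is not given here. The simulation held no outlying library and did not cover the interactions. Named genes were all members called in a comparison and 7 members of fixed interest. The members and lists were chosen with earlier results of these data known. Same-numbered C and S libraries of PBMCs correlated in their deviations from the group means (r = 0.27 to 0.56, each best with its own number), so the blocked value is given for that comparison. In part this held for S and O in PBMCs (r = 0.09 to 0.40) and for O and C in platelets (r = −0.05 to 0.41). Blocked values are given there too.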

Additional observations from a re-analysis of the deposited data

Results flagged for a closer look

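In 24 of 270 groups of 5 libraries, 1 library stood far from the others (Dixon's gap above 0.71 of the range), where chance gives about 5% of groups. Platelet library O1 was highest for Ctsb with 2525 CPM (next 308.5), Lgmn with 57.2 CPM, Mcoln1 with 14.8 CPM, Gusb with 25.6 CPM, Man2b1 with 131 CPM and Naglu with 13.5 CPM. Platelet library S5 was highest for Ctsc with 83.4 CPM (next 39.4), Manba with 12.4 CPM, Naglu with 12.3 CPM and Lipa with 23.7 CPM. Platelet library C1 was highest for Fuca1 with 55.8 CPM and Manba with 8.64 CPM, S1 was lowest for Aga with 1.82 CPM, and O3 was highest for Galns with 6.67 CPM.

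In PBMCs, Man2b1 stood apart in replicate 1 of each group, with 405 CPM in the C group, 432 CPM in the S group and 386 CPM in the O group, while the next libraries had 289, 276 and 310.0 CPM. Cd63 was highest in S1 with 11.8 CPM and in O1 with 14.8 CPM, and Smpd1 in S1 with 19.9 CPM. Laptm4a was lowest in S4 with 93.2 CPM. Ctsl was highest in C4 with 18.1 CPM, Fuca1 in O4 with 53.1 CPM and Arsa in O5 with 20.6 CPM.

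For 15 members the S against O difference itself differed between platelets and PBMCs by the interaction test at an unadjusted P under 0.05, none of them after adjustment by edgeR, and Arsa alone after adjustment by DESeq2. Platelets minus PBMCs, on the log2 scale, the cathepsins differed by 0.90 (Ctsc), 0.54 (Ctsh), 0.87 (Ctsl) and 0.77 (Ctss). The glycosidases differed by 0.99 (Manba), 0.99 (Neu1) and −1.08 (Aga). The sulfatases differed by 0.68 (Galns), 1.12 (Arsa), 0.91 (Arsb) and 0.93 (Sgsh). Scarb2 differed by 0.73, Mcoln1 by 0.78, Npc1 by 0.85 and Acp5 by 0.88. For S against C the difference was 0.97 for Arsb.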

How the results depend on the processing

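Depth limits the low members, since Arsb and Gla in platelets rest on a few CPM. With library sizes alone, member counts were 16 for platelet S against C (7 in the main analysis), 0 for O against C (2), 11 for PBMC O against C (5) and 7 for PBMC S against O (11). The interaction counts were then 11 (S against C), 2 (O against C) and 4 (S against O). Log2 fold changes that changed sign there were −0.0691 for Ctsz and −0.21 for Fuca1 in PBMC O against C. In PBMC S against O they were 0.0198 for Ctsz, 0.0433 for Lamp2, 0.11 for Laptm4a, 0.0911 for Lgmn, 0.0706 for Ppt1, 0.0201 for Asah1 and 0.0563 for Grn. In platelets against PBMCs they were −0.20 for Laptm5, −0.775 for Tpp1, −0.26 for Smpd1 and −0.41 for Glb1. All 3 groups in one fit gave 3 for platelet S against C. No low count filter gave 3 for PBMC O against C, and 4 and 2 for the S against C and O against C interactions. DESeq2 gave 2 and 2 for the same interactions, and RLE size factors gave 2 for O against C. The 2 for O against C were Arsa and Ctsl as negative in these 3 fits, but Aga and Tpp1 as positive with library sizes alone. The counts in this section stand without the share of all genes called in the same fits, and the cause of these changes was not tested.

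With each library left out, member counts ran from 1 to 13 (platelet S against C), 0 to 5 (platelet O against C), 6 to 23 (platelet S against O), 0 to 1 (PBMC S against C), 2 to 10 (PBMC O against C), 8 to 14 (PBMC S against O), 39 to 42 (platelets against PBMCs), 1 to 15, 0 to 6 and 9 to 25 (interactions of S against C, O against C and S against O). No member fold change that had passed its threshold changed sign in these fits.

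The replicate block gave 2 for PBMC S against C, as stated in the report, and 1 for the O against C interaction. Between groups of the other comparisons, and between tissues, some pairs had a correlation of 0.1 or less. The block left the other counts within 1.5 times, with 11 higher and 30 lower between tissues and 14 positive and 0 negative for the S against O interaction. The names behind these counts changed in part, with Laptm4a and Lgmn no longer called in PBMC S against O.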

Other observations

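Cathepsin F (Ctsf), a cysteine protease outside the 44 members, was read as part of the list of other hydrolases. In PBMCs it was at 0.585, 1.34, 2.45, 0.916 and 1.42 CPM in the C group and at 269, 7.63, 2.83, 62.4 and 1.91 CPM in the O group, a log2 fold change of 5.80 (SE 1.44, unadjusted P = 0.00209, adjusted P = 0.337 by edgeR), and of 3.87 (SE 1.01) without O1. Libraries O1 and O4, the pools of 3 mice, held the 2 highest values. In platelets O1 stood alone, at 455.5 CPM, with 3.82 to 15.9 CPM in the other O libraries and a log2 fold change of O against C of 2.95 (SE 1.30, adjusted P = 0.910), which was −0.61 (SE 0.60, adjusted P = 0.966) without O1.

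Cst7, which encodes the cathepsin inhibitor cystatin F, was at 116.4 and 100.9 CPM in platelet libraries O1 and O4 and at 6.22 to 12.3 CPM in the other O libraries. The C group platelets were at 9.14 CPM ± 1.56 (SD, n = 5) and the S group at 9.66 CPM ± 1.55. In PBMCs Cst7 was at 8.94 CPM ± 1.69 in the O group, so the high platelet values had no counterpart there.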
